A study of Mus musculus with 18 samples.

Results

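The 10 genes described here, Gzma, Gzmb, Prf1, Nkg7, Ncr1, Klrd1, Klrk1, Il2rb, Tbx21 and Eomes, mark natural killer (NK) cells and cytotoxic T cells and encode granule proteins, receptors and transcription factors of these cells. They were chosen by name: every non-control probe that the scanner files annotate with one of these symbols was taken, which gave 11 probes for 10 genes out of 41174 probes for 20625 named genes on the array. All 10 genes were measured. The blood came from male C57BL/6N mice of 8 to 12 weeks, drawn from the heart 6 h after gamma irradiation from a cesium source or after sham treatment. There were 7 sham-treated mice (0 Gy), 5 mice given 2 Gy and 6 given 8 Gy, with 1 array per mouse, and the labels call all 18 distinct biological samples. The RiboPure kit served for the RNA of 5 sham-treated mice, of 4 at 2 Gy and of all 6 at 8 Gy, and PAXgene for the other 2 sham-treated mice and 1 at 2 Gy. Globin RNA was then removed, and the labelled RNA was hybridised to Agilent 1-colour arrays.

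NK cells kill infected or transformed cells without prior sensitisation, by releasing granules onto a target after their activating receptors outweigh their inhibitory ones. The granules hold perforin, which forms pores in the target membrane, and granzymes, serine proteases that enter and trigger cell death. T-bet and Eomesodermin, a pair of T-box transcription factors, direct the development of NK cells and of cytotoxic CD8 T cells and the expression of these effector genes, and interleukin 15, sensed through the beta chain of the interleukin 2 receptor, keeps NK cells alive in the blood.

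Each value rests on a probe of 60 bases that captures labelled RNA of its gene. The probes of 2 granule proteins and of a receptor subunit are shown because the arrays report these genes only through them, and a probe of the granule membrane protein Nkg7 because its 2 probes are set side by side below. Gzma was read at mm7 chr13:110251676-110251735 (minus strand), Prf1 at chr10:60821367-60821426 (plus), Klrd1 at chr6:129621685-129621744 (plus) and the probe of Nkg7 shown here at chr7:39613348-39613407 (plus). The values of Nkg7 rest on its other probe, which had the higher mean signal, unless the printed one is named. The positions are those of the scanner files. The place of the probes within exons was not analysed here.
Gzma: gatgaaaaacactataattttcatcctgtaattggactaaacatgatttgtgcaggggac
Prf1: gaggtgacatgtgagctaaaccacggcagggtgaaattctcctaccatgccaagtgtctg
Klrd1: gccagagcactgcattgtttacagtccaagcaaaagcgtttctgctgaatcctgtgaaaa
Nkg7: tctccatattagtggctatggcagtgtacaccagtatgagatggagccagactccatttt

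The 250 bases before the gene start of 8 of the 10 members could be read from RefSeq (GRCm38.p6), and they were searched on both strands for AGGTGT, the core letters bound by T-box factors, because 2 members encode such factors. The motif stood in the windows of 3 of the 8 members, Gzma, Nkg7 and Prf1, against 11.8% of 32851 windows of this length and 13.6% of 27025 genes with a window. These 3 windows are shown with the motif, or its reverse complement in Gzma, in capitals. They lie at chr13:113100982-113101231 (minus strand) for Gzma, chr7:43436888-43437137 (plus) for Nkg7 and chr10:61297586-61297835 (plus) for Prf1. Between the motif and the gene start lay 74 bases in Gzma, 8 in Nkg7 and 18 in Prf1. A match describes the letters only, and binding was not measured.
Gzma: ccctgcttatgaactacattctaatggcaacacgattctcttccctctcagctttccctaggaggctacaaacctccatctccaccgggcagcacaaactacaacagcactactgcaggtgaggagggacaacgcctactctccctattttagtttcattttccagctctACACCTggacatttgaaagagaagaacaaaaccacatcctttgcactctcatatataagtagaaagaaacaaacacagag
Nkg7: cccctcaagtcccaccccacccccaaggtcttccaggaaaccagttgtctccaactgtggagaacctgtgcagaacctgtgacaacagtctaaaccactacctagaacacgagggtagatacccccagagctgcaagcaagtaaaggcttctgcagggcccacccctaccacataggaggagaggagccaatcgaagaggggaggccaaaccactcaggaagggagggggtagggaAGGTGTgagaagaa
Prf1: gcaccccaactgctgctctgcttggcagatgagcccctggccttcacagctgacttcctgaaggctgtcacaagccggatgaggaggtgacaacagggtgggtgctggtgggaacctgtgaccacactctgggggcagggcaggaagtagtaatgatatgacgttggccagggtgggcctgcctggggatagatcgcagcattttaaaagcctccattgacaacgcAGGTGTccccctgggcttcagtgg

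Values are given as the log2 of the scanner's processed signal minus the 75th percentile of the array, and levels are compared between mice for one probe and never between probes. That percentile, in intensity units, was 148 to 443 for sham-treated mice, 49.2 to 198 after 2 Gy and 61.3 to 247 after 8 Gy, and the number of arrays limits the precision. There were 3 arrays that stood apart. The array labelled 0 Gy replicate 5 had Cdkn1a, a p53 target, at 1.17 against -4.14 to -1.52 on the other 0 Gy arrays, and its B cell marker mean lay at -1.92 and its neutrophil marker mean at 1.93 relative to the mean of all 0 Gy arrays. On the irradiated arrays Cdkn1a ran from -0.37 to 2.57, the B cell mean from -4.03 to -0.98 and the neutrophil mean from 0.37 to 3.64. This array labelled 0 Gy lay within those ranges for each measure, and why was not tested. The arrays 0 Gy replicate 4 and 2 Gy replicate 3 had median correlations of 0.832 and 0.845 with the other arrays over all genes tested. All 3 were kept as labelled, and the results that turn on them are also given without them. Markers of the labelled tissue were present: every measured marker of B cells, T cells, neutrophils, platelets and erythroid cells was well above background on at least 6 of the 7 arrays at 0 Gy. This statement leaves out the monocyte markers. A measured gene had already passed a filter of 5 or more arrays well above background.

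At 8 Gy against 0 Gy, none of the 10 effector genes passed an adjusted p of 0.05 (limma, dose and kit as terms, adjusted over 13351 genes), while 11.9% of all genes tested did (7.24% higher and 4.67% lower). By an unadjusted p under 0.05, 1 of the 10 stood out, Nkg7, against 33.1% of all genes. Their log2 fold changes ran from -0.70 for Eomes to 0.87 for Nkg7 with a median of 0.19, beside a median of 0.064 over all genes tested, and 6 of the 10 were above 0 against 53.6% of all genes. The doses overlapped for all 10 genes, while 1.76% of all genes had groups that did not overlap. For 9 of the 10 the 95% interval of the log2 fold change ended above -1, so that a fall by 1 log2 unit or more lay outside it; the interval of Eomes, from -1.49 to 0.09, reached lower. The median of the 10 turned on the arrays and the scaling: it was 0.013 to 0.39 with 1 array left out, the lowest without 8 Gy replicate 5 and the highest without 0 Gy replicate 5, 0.0095 with normexp background correction and 0.021 with quantile normalization. No member was called in a direction, and the signs of Gzma, Gzmb, Ncr1, Klrd1, Tbx21 and Eomes at 8 Gy turned under another scaling, background correction or slide term. In whole blood, fewer cells of a type and less RNA per cell cannot be told apart.

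At 2 Gy against 0 Gy, again none of the 10 passed, with 0.0524% of all genes doing so (0.03% higher and 0.0225% lower), and the doses overlapped for all 10, with 1.13% of all genes not overlapping. Here 9 of the 10 log2 fold changes were above 0, all but that of Eomes, against 53.3% of all genes, with a median of 0.43 beside 0.044 over all genes, and only Nkg7 had an unadjusted p under 0.05, as did 20.3% of all genes. That median of the 10 was 0.21 without 2 Gy replicate 2, the lowest with 1 array left out, 0.68 without 2 Gy replicate 3, the highest, and 0.83 with array weights. At 8 Gy against 2 Gy, none of the 10 passed and no gene of the 13351 did (0%) in limma; the groups overlapped for all 10 members and did not for 0.172% of all genes, and 2 members had a positive log2 fold change, against 55.8% of all genes. The number of members above 0 was 8 with the slide as a fixed block, 6 with the scan day and 0 to 5 with 1 array left out. The unadjusted p there was under 0.05 for 3.19% of all genes and for none of the members, whose adjusted p ran from 0.928 to 0.990. The 2 comparisons against 0 Gy share the 7 arrays of the sham-treated mice, so their values are set side by side and not counted as separate support.

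**Figure D1:**
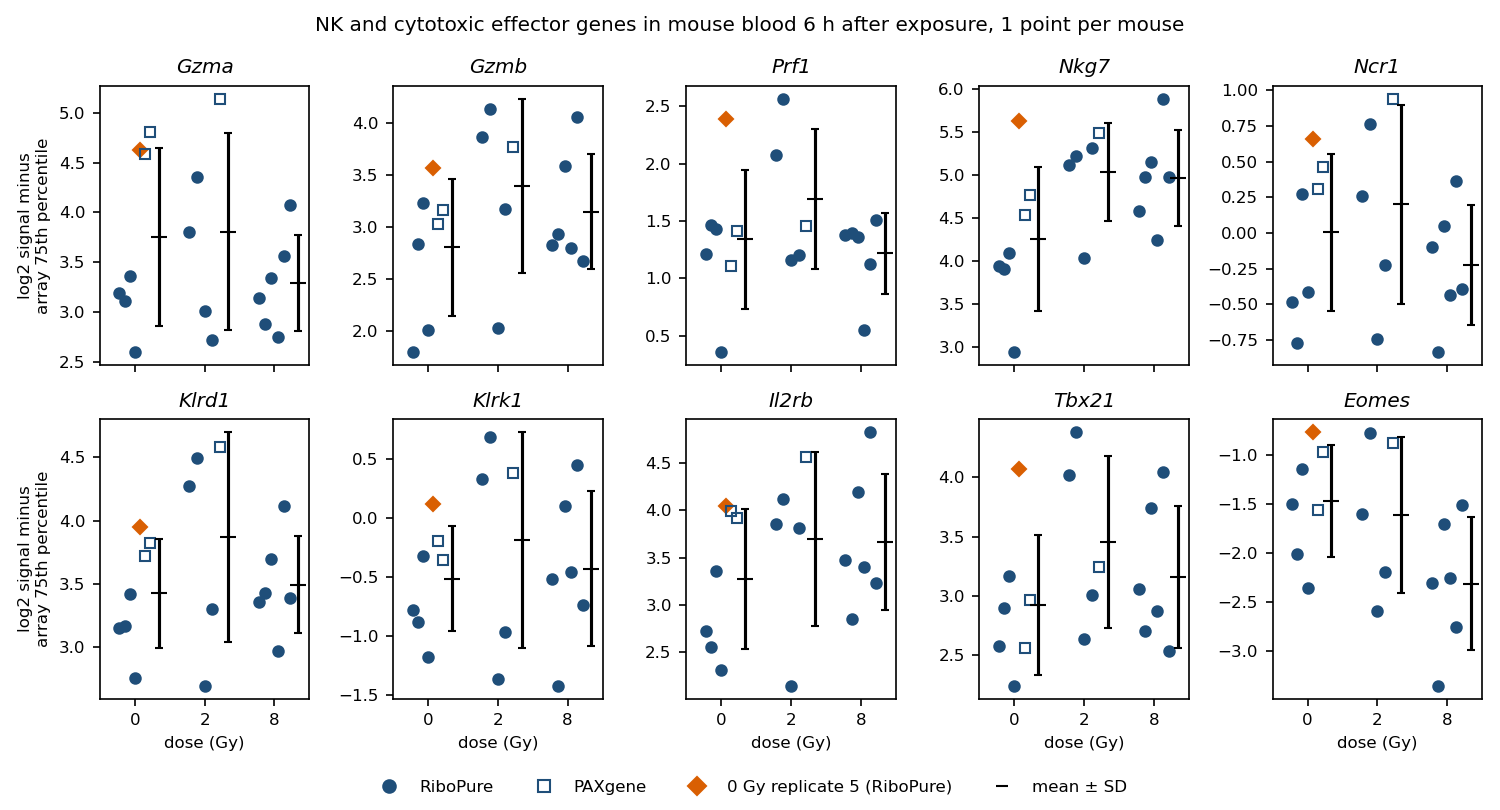
The log2 signal of each effector gene minus the array's 75th percentile (vertical axis) by dose in Gy (horizontal axis), with 1 point per mouse and the mean ± SD beside each dose. The doses overlap in every panel, and 0 Gy replicate 5, drawn as a diamond, is the highest 0 Gy array for 9 of the 10 genes.

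The granule genes come first. Gzma encodes granzyme A, a tryptase-like protease of cytotoxic granules. At 0 Gy its log2 signal lay between 2.60 and 4.81 with a median of 3.36, at 2 Gy it was 3.80, 4.35, 3.01, 2.72 and 5.14 in replicates 1 to 5, and at 8 Gy it lay between 2.75 and 4.07 with a median of 3.24. The 8 Gy values all fell inside the range of the sham-treated mice, and the fitted log2 fold change at 8 Gy over 0 Gy was -0.05 ± 0.34 (SE, adjusted p = 0.939, limma). At 2 Gy over 0 Gy it was 0.18 ± 0.34 (adjusted p = 0.798, limma). Gzma differed between the RNA kits more than any other member: the PAXgene array at 2 Gy stood at 5.14 against a mean of 3.47 ± 0.74 on the 4 RiboPure arrays (SD), and the 2 PAXgene arrays at 0 Gy averaged 4.70 against 3.38 ± 0.75 on 5 RiboPure arrays. This difference is taken up by the kit term of the model. The PAXgene arrays were the only ones on slides 5 and 6, so kit cannot be told apart from slide and scan day. No 8 Gy sample was made with PAXgene, and the plain mean of Gzma at 8 Gy was 0.46 log2 units below that at 0 Gy.

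Gzmb encodes granzyme B, the caspase-activating granule protease. Its log2 signal lay between 1.79 and 3.57 with a median of 3.02 at 0 Gy, was 3.86, 4.13, 2.03, 3.17 and 3.77 at 2 Gy, and lay between 2.67 and 4.06 with a median of 2.88 at 8 Gy. Replicates 3 and 5 at 8 Gy were higher than every sham-treated mouse, and the other 4 were within their range. The log2 fold change was 0.46 ± 0.38 at 8 Gy over 0 Gy (adjusted p = 0.416, limma) and 0.63 ± 0.38 at 2 Gy over 0 Gy (adjusted p = 0.349, limma). Prf1, the gene of perforin, lay between 0.36 and 2.39 with a median of 1.41 at 0 Gy, was 2.08, 2.57, 1.16, 1.21 and 1.46 at 2 Gy, and lay between 0.55 and 1.51 with a median of 1.37 at 8 Gy. Its 8 Gy values were the most tightly grouped of any member, with an SD of 0.35, and they too lay inside the 0 Gy range. The log2 fold change of Prf1 was -0.17 ± 0.31 at 8 Gy over 0 Gy (adjusted p = 0.736, limma) and 0.34 ± 0.31 at 2 Gy over 0 Gy (adjusted p = 0.549, limma).

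Nkg7, a membrane protein of cytotoxic granules involved in their release, was the member with the largest positive difference at both doses. At 0 Gy its log2 signal lay between 2.93 and 5.63 with a median of 4.09, at 2 Gy it was 5.11, 5.21, 4.03, 5.31 and 5.48, and at 8 Gy it lay between 4.24 and 5.88 with a median of 4.97. All 6 mice at 8 Gy and 4 of 5 mice at 2 Gy stood above the 0 Gy median, but 0 Gy replicate 5 was higher than every mouse at 2 Gy and all but 1 at 8 Gy. The log2 fold change was 0.87 ± 0.38 at 8 Gy over 0 Gy, or 1.83-fold with a 95% interval of 1.05 to 3.18 (unadjusted p = 0.0346, adjusted p = 0.122, limma). At 2 Gy over 0 Gy it was 0.82 ± 0.38 (unadjusted p = 0.0438, adjusted p = 0.235, limma).

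For Nkg7 the call turned on 1 array, labelled 0 Gy replicate 5, whose Cdkn1a and marker means lay within the range of the irradiated arrays. Without this array the log2 fold change of Nkg7 was 1.20 ± 0.32 at 8 Gy (adjusted p = 0.0163, limma) and 1.11 ± 0.31 at 2 Gy (adjusted p = 0.0454, limma), and Nkg7 was the 1 member called at either dose. Without all 3 arrays that stood apart the log2 fold change of Nkg7 was 0.93 at 8 Gy (adjusted p = 0.0211, limma) and 1.11 at 2 Gy (adjusted p = 0.0169, limma). That setting was chosen after seeing the data, and in it Klrd1 also passed at 2 Gy (0.79, adjusted p = 0.0492, limma). The same fit called 26% of all genes at 8 Gy and 17.7% at 2 Gy. Over 34 alternatives the adjusted p of Nkg7 spanned 0.0163 to 0.756 for 8 Gy and 0.00729 to 0.860 for 2 Gy in limma, and its sign against 0 Gy held in all 34. In the fit without 0 Gy replicate 5, 2975 genes (22.3%) were called at 8 Gy and 855 (6.4%) at 2 Gy, against 1591 (11.9%) and 7 (0.0524%) with it. The other probe of Nkg7, printed above, gave 0.70 ± 0.33 at 8 Gy and 0.64 ± 0.33 at 2 Gy over 0 Gy, and the 2 probes correlated with r = 0.92 over the 18 arrays.

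**Figure D2:**
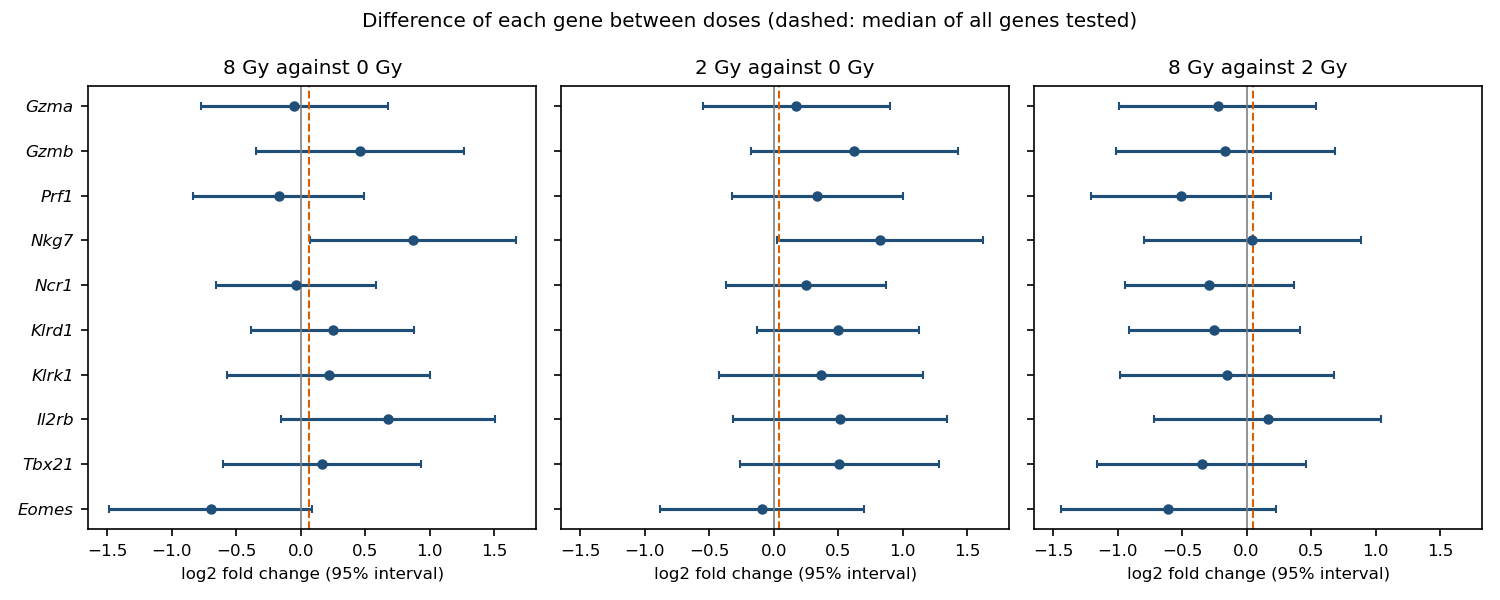
The fitted log2 fold change of each effector gene (points) with its 95% interval (bars) for 8 Gy over 0 Gy, 2 Gy over 0 Gy and 8 Gy over 2 Gy, from left to right; the dashed line is the median of all genes tested. Only the intervals of Nkg7 against 0 Gy leave out 0, and Eomes at -0.70 is the lowest member at 8 Gy.

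Among the receptors, Ncr1 encodes NKp46, an activating receptor that marks NK cells in mice. Its log2 signal lay between -0.77 and 0.66 with a median of 0.28 at 0 Gy, was 0.26, 0.76, -0.74, -0.23 and 0.94 at 2 Gy, and lay between -0.84 and 0.36 with a median of -0.24 at 8 Gy. The median was thus lower at 8 Gy, but the ranges coincided almost wholly, and the log2 fold change was -0.04 ± 0.29 with an interval from -0.66 to 0.58 (adjusted p = 0.946, limma). At 2 Gy over 0 Gy it was 0.25 ± 0.29 (adjusted p = 0.642, limma).

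Klrd1 encodes CD94, which pairs with NKG2 chains to read the nonclassical MHC molecule Qa-1. It lay between 2.75 and 3.95 with a median of 3.42 at 0 Gy, was 4.27, 4.49, 2.69, 3.30 and 4.58 at 2 Gy, and lay between 2.97 and 4.11 with a median of 3.40 at 8 Gy. The 2 Gy mice split: replicates 1, 2 and 5 were above every sham-treated mouse, replicate 3 was below all of them and replicate 4 was among them. The log2 fold change was 0.25 ± 0.30 at 8 Gy over 0 Gy (adjusted p = 0.591, limma) and 0.50 ± 0.30 at 2 Gy over 0 Gy (adjusted p = 0.343, limma).

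Klrk1 encodes NKG2D, the activating receptor for stress-induced ligands on damaged and transformed cells. It lay between -1.18 and 0.12 with a median of -0.36 at 0 Gy, was 0.33, 0.69, -1.36, -0.97 and 0.38 at 2 Gy, and lay between -1.42 and 0.45 with a median of -0.49 at 8 Gy. The same 3 mice at 2 Gy were above the 0 Gy range. Its log2 fold change was 0.22 ± 0.37 at 8 Gy over 0 Gy (adjusted p = 0.719, limma) and 0.37 ± 0.37 at 2 Gy over 0 Gy (adjusted p = 0.587, limma).

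Il2rb, the beta chain shared by the receptors of interleukins 2 and 15, lay between 2.31 and 4.04 with a median of 3.36 at 0 Gy, was 3.86, 4.12, 2.15, 3.81 and 4.56 at 2 Gy, and lay between 2.85 and 4.83 with a median of 3.44 at 8 Gy. Replicates 3 and 5 at 8 Gy were above all sham-treated mice, as they were for Gzmb. The log2 fold change was 0.68 ± 0.39 at 8 Gy over 0 Gy (adjusted p = 0.241, limma) and 0.51 ± 0.39 at 2 Gy over 0 Gy (adjusted p = 0.457, limma). Like Gzma it was higher with PAXgene, at 4.56 against a RiboPure mean of 3.48 ± 0.90 at 2 Gy and at 3.95 against 3.00 ± 0.70 at 0 Gy (SD). Here too kit cannot be told apart from slide and scan day.

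Neither transcription factor passed the threshold. Tbx21, the gene of T-bet, lay between 2.24 and 4.07 with a median of 2.90 at 0 Gy, was 4.02, 4.38, 2.63, 3.01 and 3.24 at 2 Gy, and lay between 2.53 and 4.04 with a median of 2.97 at 8 Gy. Its log2 fold change was 0.16 ± 0.36 at 8 Gy over 0 Gy (adjusted p = 0.790, limma), with -0.35 under normexp background correction, and 0.51 ± 0.36 at 2 Gy over 0 Gy (adjusted p = 0.424, limma).

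Eomes lay between -2.36 and -0.76 with a median of -1.49 at 0 Gy, was -1.60, -0.77, -2.59, -2.19 and -0.88 at 2 Gy, and lay between -3.36 and -1.51 with a median of -2.28 at 8 Gy. All 6 mice at 8 Gy were below the 0 Gy median. Replicates 2 and 5 lay below every sham-treated mouse, and on both of these arrays the probe was not well above background. The log2 fold change was -0.70 ± 0.37 (unadjusted p = 0.0792, adjusted p = 0.202, limma), and -0.09 ± 0.37 at 2 Gy over 0 Gy (adjusted p = 0.912, limma). Its probe was the 1 among the members not well above background on every array, passing on 7 of 7, 4 of 5 and 4 of 6 arrays at 0, 2 and 8 Gy, and with another background correction (normexp) the log2 fold change at 8 Gy was 0.35.

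The effector genes varied together from mouse to mouse. After the dose and kit means were removed, all 45 pairs of members correlated above 0 over the 18 arrays, 43 of them above 0.5, with a median Pearson r of 0.77 and a range from 0.45 (Nkg7 with Eomes) to 0.92 (Gzmb with Tbx21). The correlation of a member with the mean of the other 9 ran from 0.68 for Eomes to 0.93 for Klrd1 and Tbx21. These points share their libraries, and the correlations describe the arrays. They lean partly on 2 arrays, 0 Gy replicate 5 and 2 Gy replicate 3, which lay farthest from the median: without them the median r was 0.66 over 16 arrays and 34 of 45 pairs were above 0.5, with all 45 above 0.

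By the mean of the 10 genes relative to the 0 Gy mean, the lowest arrays were 0 Gy replicate 4 at -0.85 and 2 Gy replicate 3 at -0.68, and the highest were 2 Gy replicate 2 at 1.01, 2 Gy replicate 5 at 0.89 and 0 Gy replicate 5 at 0.85. The lowest and the highest mice thus came from the same doses. 2 Gy replicate 3 was the lowest of its dose for 9 members and 0 Gy replicate 4 for 8, while 0 Gy replicate 5 was the highest of its dose for 9 and 8 Gy replicate 5 for 7. The log2 of array brightness had r = -0.09 with the members' mean after dose and kit were removed.

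**Figure D3:**
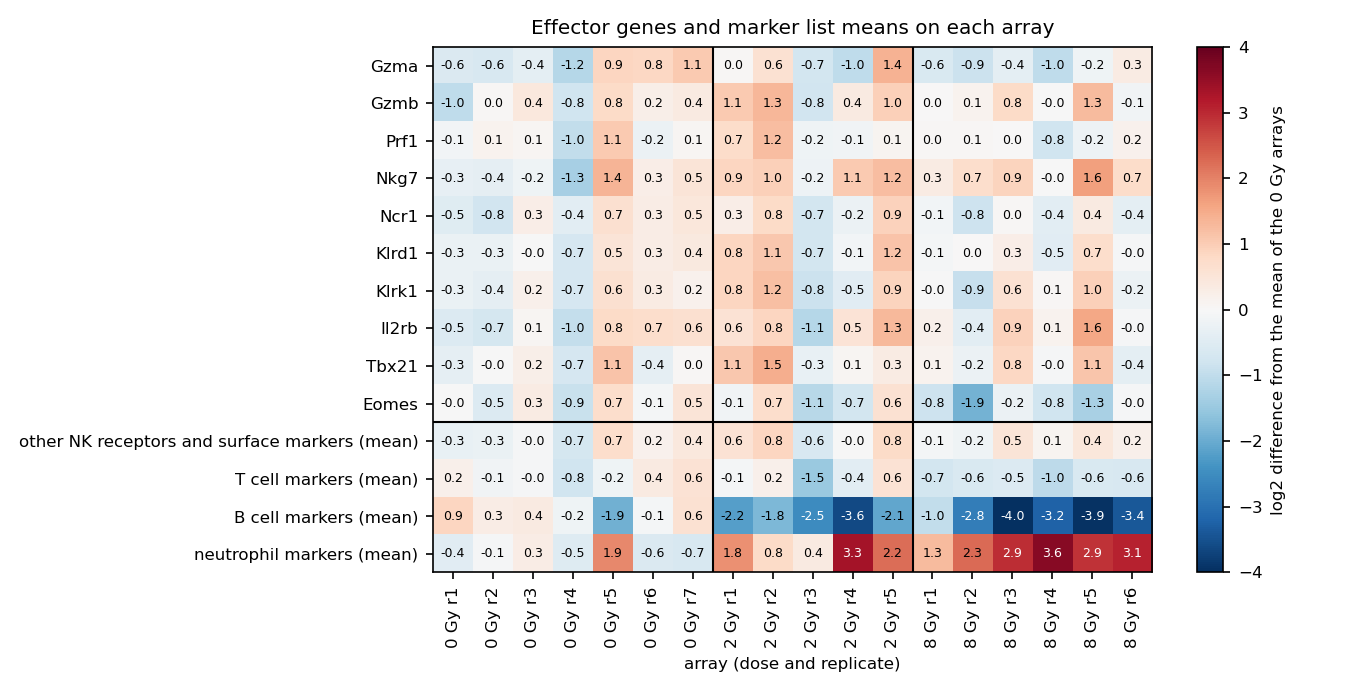
Each cell is the log2 difference from the mean of the 0 Gy arrays, for the 10 effector genes (upper rows) and the means of 4 marker lists (lower rows), with 1 column per array ordered by dose and replicate. The effector rows share their high and low columns, such as 2 Gy replicate 3 at -0.68 on average, whereas B cell markers are low and neutrophil markers high on nearly all irradiated arrays.

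The genes most like the mean of the members over the arrays, among 13333 others, were Klra8 with r = 0.98, Osbpl3 with 0.96, and Styk1, Ifitm10 and Klra3 with 0.93 each. Klra8 and Klra3 encode lectin-like receptors of the Ly49 family on mouse NK cells, Osbpl3 an oxysterol-binding protein and Styk1 a kinase-like membrane protein. Without the 2 farthest arrays their r lay between 0.88 and 0.96. None of these 5 genes passed at either dose: at 8 Gy over 0 Gy Klra8 had a log2 fold change of -0.01 ± 0.29, Klra3 of -0.01 ± 0.37 and Styk1 of 0.21 ± 0.31, with adjusted p of 0.979, 0.986 and 0.668 in limma. The other probes of Klra3 stood at -0.41 ± 0.34 and 0.27 ± 0.34 (adjusted p = 0.419 and 0.620, limma over all probes).

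Whole lists of related genes varied with the members as well. The mean of 29 other NK receptors and surface markers followed the members' mean with r = 0.97 (Spearman's rho 0.94, and r = 0.95 without the 2 farthest arrays), that of 16 other granule and killing genes with r = 0.92 (rho 0.88, 0.86) and that of 15 T cell markers with r = 0.70 (rho 0.61, 0.71). The B cell markers had r = -0.28 (rho -0.07, -0.04), and the neutrophil markers had r = 0.38, which was -0.06 without those 2 arrays. The platelet markers had r = 0.65 (rho 0.42, 0.38 without those arrays) and the 12 signalling adaptors r = 0.73 (rho 0.64, 0.51). The median r of all single genes with the members' mean was 0.18.

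Over 6 lists of related genes, 12.4% of 89 genes measured were called at 8 Gy, 10 higher and 1 lower, close to the 11.9% of all genes tested (7.24% higher and 4.67% lower), and the counts per list stand against that share. Of 29 other NK receptors and surface markers, 1 rose, Fcgr3, the low-affinity IgG receptor that NK cells share with neutrophils and monocytes (1.38 ± 0.34, adjusted p = 0.0248, limma), and 28 did not pass. The median of the list was 0.27, and 4 rose with normexp background correction, a fit in which 6.85% of all genes were higher and 8.4% lower. The next gene, Klrb1b, an inhibitory lectin-like receptor, stood at 0.93 ± 0.34 (adjusted p = 0.0747, limma).

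Of 16 other granule and killing genes, 3 rose, beside 7.24% of all genes, with a list median of 0.53; with normexp background correction 0 rose and 1 fell. They were Srgn, the proteoglycan core of granules (1.23 ± 0.33, adjusted p = 0.0327), Rab27a (1.33 ± 0.38, adjusted p = 0.0398) and Lyst (1.37 ± 0.40, adjusted p = 0.0409), which act in granule docking and granule size in many leukocytes. Of 12 signalling adaptors, 2 rose, Tyrobp (DAP12, 1.16 ± 0.31, adjusted p = 0.0327) and Fcer1g (1.19 ± 0.34, adjusted p = 0.0398), both of them carried by myeloid cells too; with normexp 0 rose and the median was -0.085. The adjusted p of these 5 genes are from limma over all genes. The other probes of Lyst (1.30) and Fcer1g (0.97) did not pass (adjusted p = 0.138 and 0.0649, limma over all probes).

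With 7.24% of all genes higher and 4.67% lower, 2 of 15 regulators of NK and effector T cells rose and 1 fell (1 and 3 with normexp). Nfil3, needed for NK development, rose (1.66 ± 0.35, adjusted p = 0.0147), as did Id2 (1.05 ± 0.31, adjusted p = 0.0412), while Irf8, a regulator of myeloid, B and NK cells, fell by 1.18 ± 0.26 (adjusted p = 0.0156), all by limma. Of 10 cytokine receptor genes and their kinases, Il18rap rose (1.40 ± 0.44, adjusted p = 0.0478, limma), as did Jak3 (0.83 ± 0.26, adjusted p = 0.0483, limma). In limma over all probes, the other probes of Nfil3 and Id2 passed, while that of Irf8 (-1.11, adjusted p = 0.0591) did not. Neither probe of Jak3 passed there (adjusted p = 0.0528, and 0.0964 for the other probe at 0.54). None of the 7 effector cytokines and chemokines passed, among them Ifng at 0.53 ± 0.43 and Tnf at 0.69 ± 0.30 (adjusted p = 0.402 and 0.124, limma).

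Beside these lists, the markers of neutrophils and B cells shifted by more. Of 10 neutrophil markers all 10 rose at 8 Gy, with a median log2 fold change of 2.44, and their mean on an array lay between 1.28 and 3.64 at 8 Gy against -0.66 to 1.93 at 0 Gy. Of 10 B cell markers 9 fell, with a median of -3.35, and their mean lay between -4.03 and -0.98 at 8 Gy against -1.92 to 0.86 at 0 Gy. The marker that did not fall, Cr2, stood at 1.12 on its main probe, while its other probe stood at -3.77. Of 15 T cell markers 2 fell, Ccr7 by 1.53 ± 0.32 (adjusted p = 0.0135, limma) and Cd8b1 by 1.32 ± 0.33 (adjusted p = 0.0250, limma), with a list median of -0.40; the other probe of Cd8b1 stood at 0.53. Cd8a, the partner chain of the CD8 co-receptor carried by cytotoxic T cells, stood at -1.10 ± 0.37 (adjusted p = 0.0604, limma) and did not pass. None of 10 monocyte markers and none of 7 erythroid markers passed, and 2 of 8 platelet markers rose, Pf4 and Itgb3, with 11.9% of all genes called. The other probe of Itgb3 stood at 0.52, and over all probes neither of its probes passed (adjusted p = 0.0525 and 0.174, limma). With normexp, where 6.85% of all genes were higher and 8.4% lower, 3 monocyte markers fell and 0 platelet markers rose. Without 0 Gy replicate 5, where 14.5% of all genes were higher, all 8 platelet markers rose. The part of these shifts in the values of Fcgr3, Srgn, Tyrobp, Fcer1g and the other genes that rose was not tested.

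**Figure D4:**
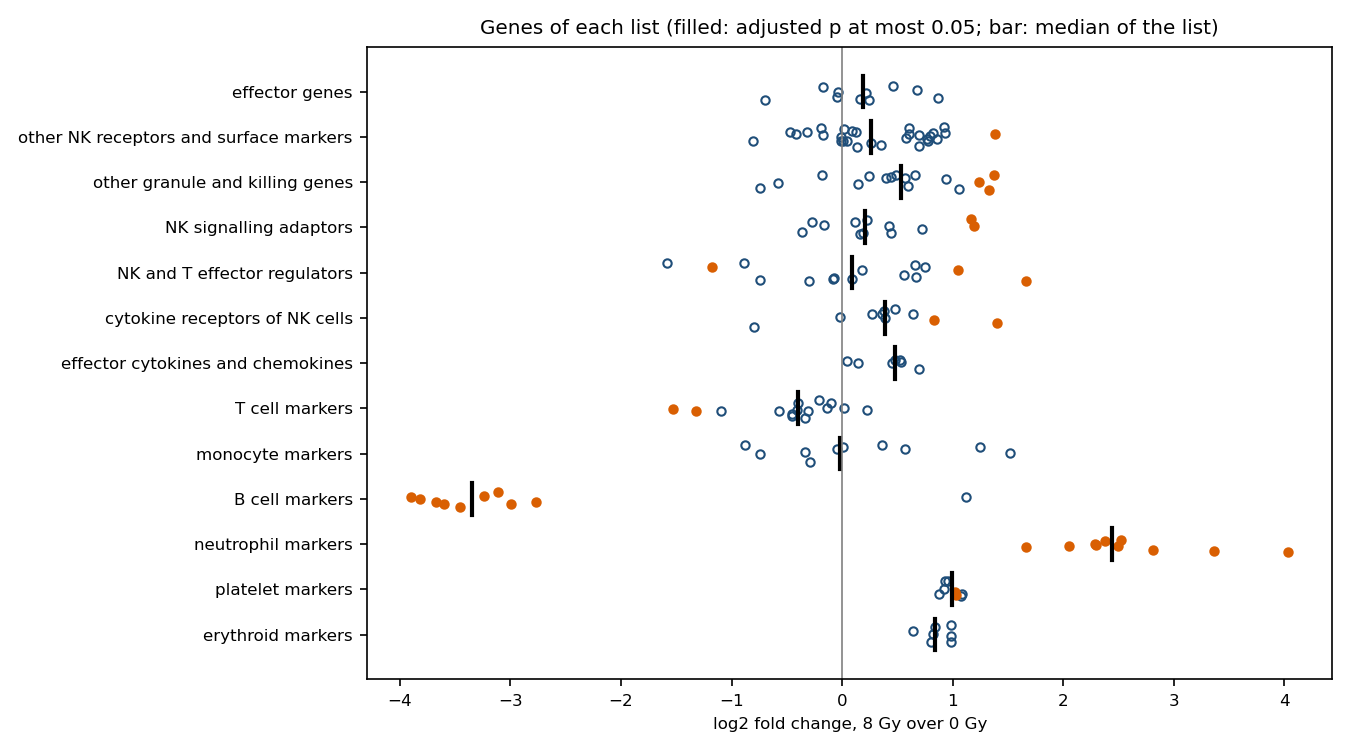
Each point is the log2 fold change of a gene at 8 Gy over 0 Gy, with 1 row per gene list; filled points passed an adjusted p of 0.05 and the bar is the median of the list. The effector genes sit around their median of 0.19 with none filled, between the B cell markers at a median of -3.35 and the neutrophil markers at 2.44.

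At 2 Gy over 0 Gy no gene of any of these lists passed, with medians of 0.32 for the other NK receptors, 0.54 for the granule and killing genes, -0.12 for T cell markers, -2.69 for B cell markers and 1.62 for neutrophil markers. Counts in the lists turned on the arrays and the model. Without 0 Gy replicate 5, 14.5% of all genes rose and 7.8% fell at 8 Gy, and 3.46% rose and 2.94% fell at 2 Gy. In that fit 8 of the other NK receptors and 7 of the granule and killing genes rose at 8 Gy. At 2 Gy 9 B cell markers fell and 8 neutrophil markers rose, and the T cell count at 8 Gy was again 2. Without all 3 arrays that stood apart, 14% of all genes were higher and 12% lower at 8 Gy, and 10.4% were higher at 2 Gy. In this fit 5 of the other NK receptors and 6 granule and killing genes rose at 8 Gy, and 5 of each rose at 2 Gy. Of the T cell markers 5 fell at 8 Gy. With the slide as a fixed block no gene passed in any comparison, and with quantile normalization no adaptor, NK receptor, cytokine receptor or platelet gene passed at 8 Gy.

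The 18 arrays came from 8 slides, and 5 slides held more than 1 dose. On slide 2 all 10 members were higher in the 2 mice at 2 Gy than in the 1 at 0 Gy, with a median difference of 1.24, and on slide 5 all 10 were higher in 1 mouse at 2 Gy than in 1 at 0 Gy, with a median of 0.66. On slide 4 all 10 were lower in the 2 Gy mouse, with a median of -1.51; this slide holds 2 Gy replicate 3 and 0 Gy replicate 5. On slide 1 the 2 mice at 8 Gy were higher than the 1 at 0 Gy for 7 members, with a median of 0.45. On slide 7 the 3 mice at 8 Gy were higher than the 1 at 2 Gy for 7 members, with a median of 0.10. The members varied together over the arrays, with a median Pearson r of 0.77 after dose and kit were removed. The 10 members on a slide are thus not separate observations. No test was run within single slides; with the slide as a fixed block, which leaves 8 residual degrees of freedom, the lowest adjusted p of a member was 0.609 at 8 Gy and 0.676 at 2 Gy against 0 Gy (limma).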

How the data were processed

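The 18 arrays (7, 5 and 6 mice at 0, 2 and 8 Gy) were grouped by dose from the labels. Per the file headers, the authors' scanner software, Agilent Feature Extraction 9.5.3.1, made the processed intensity by background subtraction and detrending. A further deposited table gives intensity values on a linear scale, its 18 columns sharing a median of 20.7, and it served as an alternative. The submitters' processing notes also name limma, and the step is not given in the sources used here. RNA was amplified and labelled with Cy3, per the labels' protocols.

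The log2 of the processed signal was averaged where a probe had several spots, and the array's 75th percentile was subtracted. A probe had to be well above background on 5 or more arrays, as 22047 were. The probe with the highest mean stood for its gene, and 13351 genes were tested. A linear model with dose and kit was fitted in limma 3.58.1 (R 4.3.3), 2-sided, with Benjamini-Hochberg adjustment and a threshold of 0.05. Errors beside log2 fold changes are standard errors. The fit was checked on simulated data with independent noise for each gene and array. The simulated arrays had no slide effects and no arrays that stood apart, so the check does not cover these. The number of arrays, 5 to 7 per dose, limits the precision.

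The members and the gene lists were chosen with earlier results of these data known. Named are all members, the 5 genes most correlated with their mean after dose and kit were removed, and up to 4 genes of each list by smallest p at 8 Gy over 0 Gy. Cdkn1a and Cr2, outside this rule, were chosen after their values were seen. Alternatives covered normexp, quantile, median scaling, the deposited table, filters, probe averaging, kit, slide, scan day, array weights, brightness, the replicate number and each array left out. Leaving out 3 arrays together was added after seeing the data. The main model did not pair the samples by the labels' replicate numbers. Same-numbered arrays correlated from -0.345 to 0.483 in their deviations from the group means. Differently numbered arrays were not compared, so these values cannot settle whether the numbers pair the samples. A fit with the replicate number as a block is given below.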

Additional observations from a re-analysis of the deposited data

Results flagged for a closer look

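Nkg7 at 2 Gy had 1 array far from the other 4: on its brighter probe, 2 Gy replicate 3 had a log2 signal of 4.035, against 5.109 for the nearest of the other arrays. Of 33 groups checked, 11 probes at 3 doses, this was the 1 found, and chance alone gives about 1 in 20. The same array was the lowest of its dose for 9 of the 10 members, and its median correlation with the other arrays over all genes was 0.845.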

How the results depend on the processing

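Each of the 10 members was recomputed in 3 comparisons under 34 alternatives, 1020 values in all, of which 935 kept direction and side of the threshold, 13 newly passed and 72 changed sign, none of these past the threshold. The cause was not tested. In the 8 Gy against 0 Gy comparison, members called went to 1 with array weights (Nkg7), with the 3 arrays left out and without 0 Gy replicate 5 (0 to 1 over 18 arrays left out in turn). Of all genes, these fits called 34.6%, 26% and 22.3%. At 2 Gy against 0 Gy the members called went to 7 with array weights (Gzmb, Il2rb, Klrd1, Klrk1, Ncr1, Nkg7, Tbx21), to 2 with the 3 arrays left out and to 1 without 0 Gy replicate 5 (0 to 1). Of all genes, these fits called 32.1%, 17.7% and 6.4% at 2 Gy. All genes called at 8 Gy numbered 456 with median scaling, 566 with no filter, 267 on RiboPure arrays, 0 with slide or scan day as a fixed block or brightness as a covariate (1177, 2486 and 1839 at an unadjusted p under 0.05 in limma), 581 with slide as a random block, 4625 with array weights, 3470 with the 3 arrays left out, and 263 to 2975 with 1 array left out, the lowest without 0 Gy replicate 1 and the highest without 0 Gy replicate 5. The main 967 higher and 624 lower calls were 914 and 1122 with normexp, 499 and 591 with quantile normalization and 494 and 595 in the deposited table. At 2 Gy the count was 55 with normexp, 3 with median scaling, 42 with the stricter filter of 12 arrays, 0 with no filter, RiboPure arrays, slide or scan day as a fixed block or brightness (5751, 1626, 1828, 1893 and 844 unadjusted), 4284 with array weights, 2363 with the 3 arrays left out, and 0 to 855 with 1 left out. At 8 Gy against 2 Gy it was 1 with array weights.

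With the replicate number as a block, 244 genes were called at 8 Gy and 73 at 2 Gy against 0 Gy, and no member; among members the block turned Eomes at 2 Gy over 0 Gy to 0.0393 and Nkg7 at 8 Gy over 2 Gy to -0.20.

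Changed signs (log2) at 8 Gy over 0 Gy were: with normexp, Gzmb -0.0562, Ncr1 0.0752, Klrd1 -0.30, Eomes 0.35 and Tbx21 -0.35; with quantile normalization and the deposited table, Tbx21 -0.00198 and -0.00407; with slide as a fixed block, Gzma 0.16 and Ncr1 0.31, as a random block 0.0247 and 0.0108; with scan day, 0.18 and 0.14; with array weights, Ncr1 0.14; with the 3 arrays left out, Gzma 0.0768 and Ncr1 0.0966. At 2 Gy over 0 Gy: with normexp, Gzma -0.0159 and Eomes 0.27; with slide fixed, -0.0505 and 0.0108; with scan day, Gzma -0.0500, Prf1 -3.46e-05 and Eomes 0.0155; for Eomes also 0.31 with array weights, 0.0513 with brightness and 0.14 with the 3 arrays left out. At 8 Gy over 2 Gy: with slide fixed, Gzma 0.21, Gzmb 0.52, Ncr1 0.0262, Klrd1 0.13, Klrk1 0.41 and Tbx21 0.33; with scan day, Gzma 0.23, Gzmb 0.24, Klrd1 0.0661 and Klrk1 0.20; with normexp, Nkg7 -0.28, Eomes 0.0791 and Il2rb -0.0822; for Nkg7 also -0.0248 with quantile normalization, -0.0281 in the deposited table, -0.0657 with no kit term, -0.0801 with array weights and -0.19 with the 3 arrays left out; for Il2rb -0.0377, -0.00609 and -0.20 under the last 3 of these. Leaving out 1 array gave, at 8 Gy over 0 Gy, Gzma -0.21 to 0.23, Ncr1 -0.16 to 0.15, Prf1 -0.40 to 0.0464 and Tbx21 -0.0144 to 0.40; at 2 Gy over 0 Gy, Gzma -0.0293 to 0.42 and Eomes -0.32 to 0.12; and at 8 Gy over 2 Gy, Gzma -0.45 to 0.00767, Gzmb -0.52 to 0.0666, Klrk1 -0.45 to 0.12, Nkg7 -0.20 to 0.19 and Il2rb -0.22 to 0.33. Signal over background limits Eomes, which was not well above background on 3 arrays.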
